A study of Mus musculus with 4 samples.

Results

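Keratins are the proteins of the intermediate filaments of epithelial cells. This account covers the 52 keratin genes, of 19938 genes with a named transcript cluster, on Affymetrix mouse gene arrays hybridised with RNA of mouse skin. They were taken as all genes whose platform symbol is Krt followed by digits and at most 1 letter, which leaves out the keratin-associated proteins, and each had exactly 1 cluster. Of them 28 encode type I and 24 type II keratins. They were grouped by where they are known to be made: 3 basal, 8 suprabasal, 4 stress, 5 simple and 22 hair keratins, and 10 others. Krt81 and Krt83, also listed by RefSeq, were not analysed here.

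The study looked for genes that may hinder keratinocytes from dividing and differentiating once Cflar is deleted in them. Cflar encodes cFLIP, a protein that holds back caspase-8 at death receptors. In the K5-Cre group, replicates 2 and 6, the genotype is CflarF/F;K5-Cre;Tnfrsf1a+/- on both arrays. By its name K5-Cre is Cre under a keratin 5 promoter, active in basal keratinocytes. The no K5-Cre group has 2 arrays of unlike genotype, since replicate 1 is CflarF/+;Tnfrsf1a+/- but replicate 3 is CflarF/F;Tnfrsf1a+/-. All 4 came from strain C57BL/6, and all were heterozygous for Tnfrsf1a, the TNF receptor gene. No age, sex, body site or number of animals per array is given in the labels, so a p-value here measures array-to-array spread alone, and that spread may be technical.

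A keratin filament is built from pairs of 1 type I and 1 type II keratin, and partners are usually made in the same cells. Basal keratinocytes of the epidermis make the pair of Krt5 and Krt14. Cells that leave the basal layer switch to Krt1 and Krt10, injured or hyperproliferative epidermis adds Krt6, Krt16 and Krt17, and the hair follicle makes its own set in the shaft and in the inner root sheath that guides it. Simple keratins such as Krt8 and Krt18 are typical of single-layered epithelia and of embryonic skin.

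The targeted gene did not check the labels. The cluster of Cflar with the highest mean gave 9.69 and 9.71 in K5-Cre skin, against 8.97 and 8.77 in no K5-Cre skin (log2 signal), so it was higher, as was Tnfrsf1a, by 1.17 ± 0.11 (adjusted p = 0.000932). A cluster averages over the transcript and skin holds cells without Cre, so "K5-Cre" stands for the label only. Of 8 non-keratin keratinocyte markers with a cluster, 6 were higher and 2 did not pass, with a median log2 difference of 0.88, in a comparison that called 25.2% of all tested genes higher and 38.8% lower. Their median level was 12.40 and 11.90 on the K5-Cre arrays, against 11.07 and 11.08 on the no K5-Cre arrays. In the same arrays all 7 fibroblast markers (median −2.93), all 8 skeletal muscle markers (median −5.04) and 5 of 5 tested adipocyte markers (of 6 with a cluster, median −2.34) were lower, and all 9 neutrophil markers were higher without the filter (median 5.58). The differences of the neutrophil markers ranged from 0.51 for Camp to 6.84 for S100a8. Of these 9, 7 were tested with the filter, each only through its level in K5-Cre skin. In turn 4 of the 8 muscle and 3 of the 5 tested adipocyte markers passed it only through their level in no K5-Cre skin. Without the filter all 8 muscle and 5 of the 6 adipocyte markers were lower, as were 27.9% of all named genes. Of 6 tested melanocyte markers 1 was higher and 1 lower. The part of these cells in the keratin values was not tested. In bulk skin, more cells of a type and more RNA per cell cannot be told apart, nor can a keratin's own change be told apart from a change in the share of keratinocytes.

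Across the family, more keratins were higher than lower in K5-Cre skin, and the log2 differences reached from 5.85 for Krt16 to −2.84 for Krt15. Signal over background was not assessed, so a difference against a low level, such as that of Krt16 in no K5-Cre skin, is that of the deposited values. Whether signal still rises in proportion near the top of the scale was not assessed either. Genes were tested where the mean log2 signal over the 4 arrays exceeded 7.61, the median of all clusters, and 27 keratins passed this filter. Of the 27, 15 rose and 8 fell at an adjusted p of 0.05, and 4 missed it, so that 85.2% were called, beside 64.0% of all 11255 tested genes, with 25.2% of all tested genes higher and 38.8% lower. The filter shapes these counts, since 5 of the 27 had a mean under 7.61 in no K5-Cre skin and 6 a mean under it in K5-Cre skin. With no filter, all 52 were tested, and 28 rose, 9 fell and 15 did not pass, against a background of 30.8% higher and 27.9% lower among 19938 genes (58.7% in all). In 46 of the 52 the groups lay apart, which is 88.5%, beside 84.6% of all named genes. By direction, 37 keratins lay apart upward and 9 downward, beside 47.6% and 37.0% of all named genes. The median log2 difference was 0.41 over the 52 keratins and 0.11 over all named genes. A two-sided exact permutation test of 2 arrays against 2 cannot give a p under 0.333, so each adjusted p rests on the variance model of limma.

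**Figure D1:**
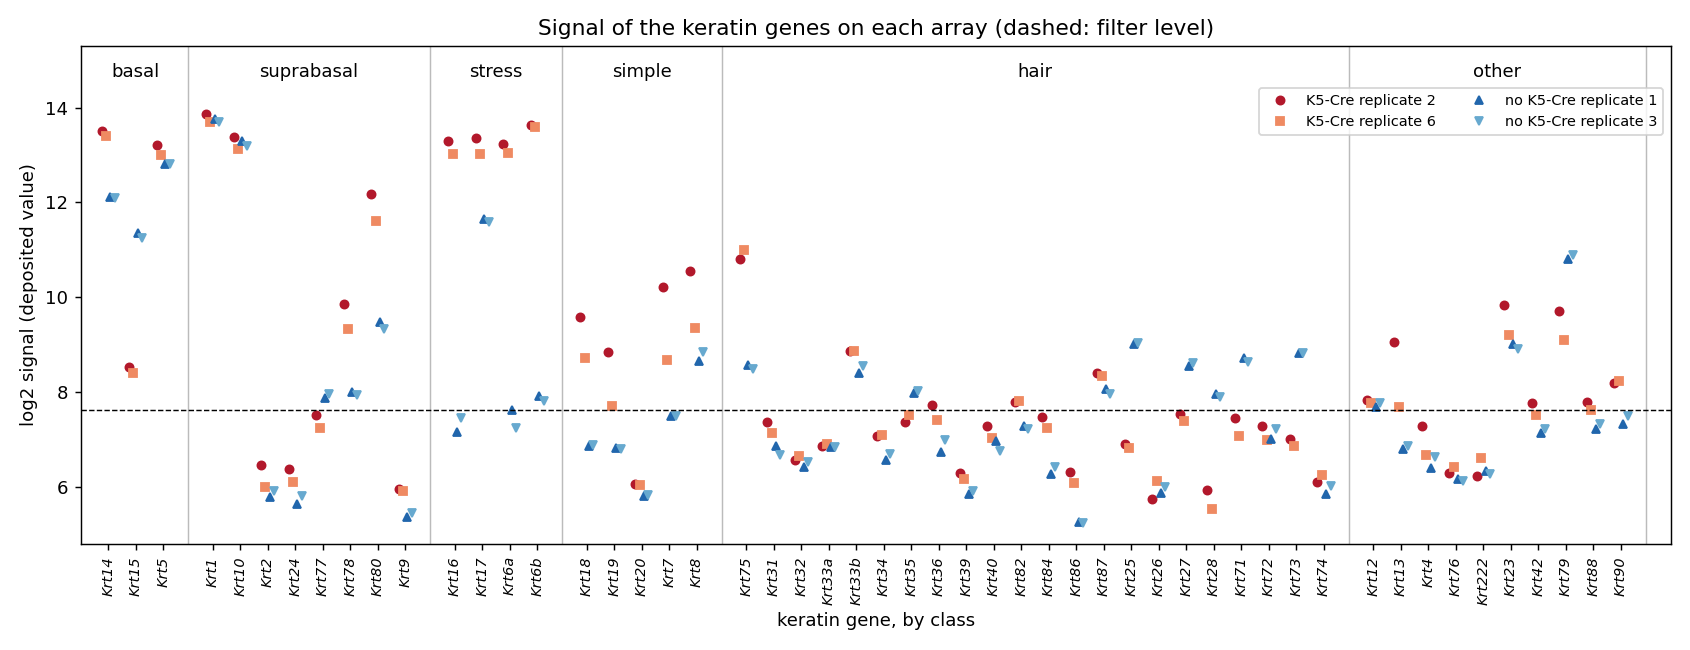
Deposited log2 signal (vertical axis) of the 52 keratin genes by class on each of the 4 arrays, with the filter level of 7.61 as a dashed line. Krt6a, Krt6b and Krt16 lie between 13.02 and 13.63 in K5-Cre skin and between 7.16 and 7.91 in no K5-Cre skin, and Krt25, Krt27, Krt28, Krt71 and Krt73 lie lower in K5-Cre skin.

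Of the stress keratins, which epidermis makes after wounding and in hyperproliferative disease, Krt6a, Krt6b and Krt16 had the largest differences of the 52 keratins, and Krt17 rose less than Krt80, Krt75, Krt18, Krt7 and Krt78. Krt6b, a type II keratin, had 13.63 and 13.58 in K5-Cre skin, against 7.91 and 7.81 in no K5-Cre skin (log2 signal). Krt6a, its close relative, had 13.24 and 13.05 in K5-Cre skin, against 7.61 and 7.24 in no K5-Cre skin. Krt16, their usual type I partner, had 13.30 and 13.02 in K5-Cre skin, against 7.16 and 7.45 in no K5-Cre skin. Both K5-Cre arrays were high for all 3 genes and both no K5-Cre arrays low, with no overlap. The differences were 5.75 ± 0.10 for Krt6b (SE, adjusted p = 5.39e-05), 5.72 ± 0.16 for Krt6a (adjusted p = 6.06e-05) and 5.85 ± 0.16 for Krt16 (adjusted p = 5.88e-05). They are 3 of the 121 tested genes at least 4 apart on the log2 scale. Krt6a and Krt16 passed the filter only through their level in K5-Cre skin. Without the filter both were called higher (adjusted p = 2.55e-05 and 2.44e-05), as were 30.8% of all named genes. Krt17, a type I stress keratin also made in hair follicles, was already well above the filter without Cre. It had 13.36 and 13.03 in K5-Cre skin, against 11.65 and 11.59 in no K5-Cre skin, a rise of 1.57 ± 0.13 (adjusted p = 0.000594).

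The authors' deposited table, a second set of values for the same arrays, holds 3 of these 4 genes. In the authors' deposited table the Krt6a cluster spans chr15:101520354-101524736 on the minus strand (mm9) with 10 probes, and the Krt6b cluster spans 101506454 to 101524669 with 14 probes. The 2 clusters overlap, so the signals of Krt6a and Krt6b may not be separate. The Krt16 cluster lies on chromosome 11 from 100107405 to 100110216 with 13 probes, per the authors' deposited table. From its linear signals the differences were 5.49 for Krt6a, 5.32 for Krt6b and 5.69 for Krt16, each smaller than in the value table by 0.16 to 0.43 on the log2 scale. All 11 keratins of that table had the same direction in both. This is no separate support, since the arrays are the same. The authors also kept only clusters at least 4-fold apart on at least 1 array.

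Basal keratins did not move together. Krt14, the type I keratin of basal cells, had 13.51 and 13.40 in K5-Cre skin, against 12.10 and 12.08 in no K5-Cre skin, a rise of 1.36 ± 0.08 (adjusted p = 0.000197). Its partner Krt5, the gene after which K5-Cre is named, had 13.20 and 13.01 in K5-Cre skin, against 12.80 and 12.81 in no K5-Cre skin. The groups of Krt5 did not overlap, but the difference of 0.30 ± 0.09 was small (adjusted p = 0.0342), and with 1 no K5-Cre array alone the call failed (adjusted p = 0.204 with replicate 3 and 0.195 with replicate 1). Krt15, a type I keratin of basal cells and of the hair follicle bulge where stem cells reside, went the other way. It had 8.52 and 8.39 in K5-Cre skin, against 11.35 and 11.24 in no K5-Cre skin, a difference of −2.84 ± 0.11 (adjusted p = 9.39e-05). The Krt15 cluster lies at chr11:99993078-99997242 (mm9) with 35 probes, and the authors' deposited table gives a difference of −2.81 from its signals.

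The pair of Krt1 and Krt10 did not differ detectably, while Krt77, Krt78 and Krt80 of the same class did. Krt1, the first keratin of cells committed to differentiation, had 13.86 and 13.68 in K5-Cre skin, against 13.76 and 13.70 in no K5-Cre skin. Krt10, its partner, had 13.38 and 13.12 in K5-Cre skin, against 13.29 and 13.18 in no K5-Cre skin. The arrays of the 2 groups overlapped for both genes, and the differences were 0.04 ± 0.08 and 0.01 ± 0.11 (adjusted p = 0.678 and 0.927). Their sign was negative without K5-Cre replicate 2 (−0.047 and −0.12).

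Krt80, made late in differentiation, rose by 2.49 ± 0.21 (adjusted p = 0.00061), with 12.18 and 11.61 in K5-Cre skin, against 9.47 and 9.33 in no K5-Cre skin. Krt78, a suprabasal type II keratin, rose by 1.62 ± 0.19 (adjusted p = 0.00177), with 9.85 and 9.32 in K5-Cre skin, against 7.997 and 7.94 in no K5-Cre skin. Krt77, another suprabasal type II keratin, was lower by 0.53 ± 0.12 (adjusted p = 0.014), with 7.51 and 7.23 in K5-Cre skin, against 7.86 and 7.95 in no K5-Cre skin. Krt77 passed the filter only through its level in no K5-Cre skin (adjusted p = 0.0147 without the filter). The groups did not overlap for these 3 genes, but leaving out no K5-Cre replicate 1 or 3 ended the Krt77 call (adjusted p = 0.0665 and 0.0941). Krt2, of the upper epidermis, lay under the filter, with 6.46 and 6.00 in K5-Cre skin, against 5.79 and 5.91 in no K5-Cre skin. Krt24 and the sole keratin Krt9, also under the filter, differed by 0.53 and 0.54. With no filter Krt24 and Krt9 passed (adjusted p = 0.0175 and 0.00613) and Krt2 did not (adjusted p = 0.0973).

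All 5 simple keratins were higher on both K5-Cre arrays than on both no K5-Cre arrays, as were 47.6% of all named genes. Without the filter 4 of the 5 rose and Krt20 did not pass, beside 30.8% of all named genes higher. Krt8, Krt7 and Krt18 passed the filter, Krt7 and Krt18 only through their level in K5-Cre skin. Krt7, a type II keratin of glands and ducts, had 10.21 and 8.68 in K5-Cre skin, against 7.49 and 7.50 in no K5-Cre skin. Krt8, the first type II keratin of the embryo, had 10.55 and 9.34 in K5-Cre skin, against 8.65 and 8.85 in no K5-Cre skin. Krt18, the type I partner of Krt8, had 9.58 and 8.71 in K5-Cre skin, against 6.85 and 6.88 in no K5-Cre skin. In each gene replicate 2 was the higher of the K5-Cre arrays. The rises were 1.95 ± 0.49 for Krt7 (adjusted p = 0.0203), 1.20 ± 0.40 for Krt8 (adjusted p = 0.0477) and 2.28 ± 0.29 for Krt18 (adjusted p = 0.00216). Krt7 and Krt8 were no longer called when no K5-Cre replicate 1 was left out (adjusted p = 0.0566 and 0.146) or replicate 3 (adjusted p = 0.0545 and 0.0979). Krt19, a type I keratin of ducts, follicle stem cells and simple epithelia, lay just under the filter, with 8.85 and 7.70 in K5-Cre skin, against 6.82 and 6.79 in no K5-Cre skin. Without the filter Krt19 passed with a difference of 1.47 ± 0.35 (adjusted p = 0.0164). Krt20, known from gut and Merkel cells, stayed near the low end on all arrays, at 6.06 and 6.03 in K5-Cre skin, against 5.81 and 5.83 in no K5-Cre skin (adjusted p = 0.0763 without the filter). Of 7 genes listed as markers of simple epithelium other than keratins, 6 were tested, 4 of these rose and 2 did not pass. Among all tested genes 25.2% were higher. The median log2 difference was 0.94 over the 7, and Cldn4, Spint1 and Cdh1 rose most (2.49, 1.76 and 1.32). The list may not be specific to simple epithelium, since Cdh1 had 10.58 and 10.53 in no K5-Cre skin. Epcam among the 7 differed by −0.004 ± 0.11 (adjusted p = 0.975). Prom1, also among them, had 9.24 and 6.85 in K5-Cre skin, against 7.57 and 7.50 in no K5-Cre skin, so its K5-Cre arrays lay on both sides. All 7 were higher in replicate 2 than in replicate 6, as the 5 simple keratins were, and their part in the keratin values was not tested.

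The size of the simple keratin rise depended on the array. K5-Cre replicate 2 exceeded replicate 6 by 1.53 for Krt7, 1.37 for Krt13, 1.21 for Krt8 and 1.14 for Krt19 on the log2 scale. A gap of at least 1 in either direction was found for these 4 of 52 keratins and for 185 of 19938 named genes, or 0.93%. The median gap was 1.14 over the simple keratins, 0.23 over the stress keratins, 0.13 over the basal keratins and −0.01 over all named genes. In all, 78.8% of the keratins were higher in replicate 2, beside 48.1% of all named genes. The no K5-Cre arrays differed by at most 0.37 for any keratin. Across the non-keratin keratinocyte markers the same gap had a median of 0.32, with all 8 higher in replicate 2.

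**Figure D2:**
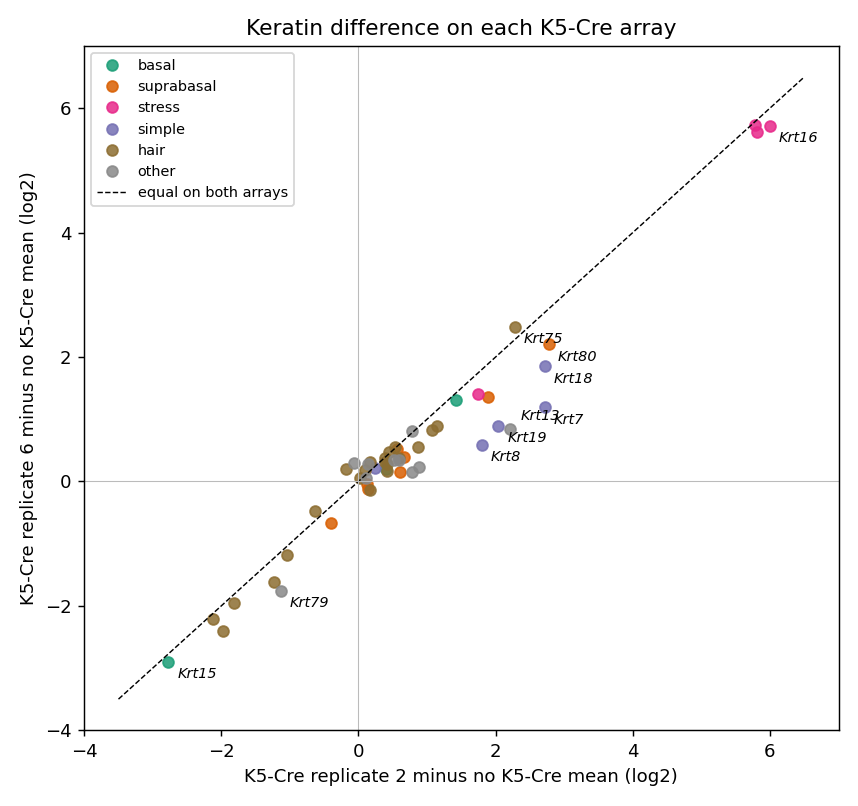
Each point is a keratin gene, with its log2 difference from the no K5-Cre mean on K5-Cre replicate 2 (horizontal axis) and replicate 6 (vertical axis), coloured by class. The stress keratins lie near the dashed line of equal values, whereas Krt7, Krt8, Krt19 and Krt13 lie below it by 1.14 to 1.53.

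Mucosal and unclassified keratins were mostly of low signal. Krt13, a type I keratin of the lining of mouth and oesophagus, had 9.04 and 7.67 in K5-Cre skin, against 6.80 and 6.87 in no K5-Cre skin. It lay just under the filter, and without the filter it rose by 1.52 ± 0.42 (adjusted p = 0.0251). Krt4, its mucosal partner, had 7.29 and 6.66 in K5-Cre skin, against 6.38 and 6.63 in no K5-Cre skin, and did not pass with no filter (adjusted p = 0.113). Replicate 2 was again the higher K5-Cre array for both members of that pair. Krt79, a type II keratin of the upper hair follicle and sebaceous duct, had 9.71 and 9.09 in K5-Cre skin, against 10.81 and 10.88 in no K5-Cre skin, a difference of −1.45 ± 0.22 (adjusted p = 0.00391). Krt90 rose by 0.80 ± 0.10 (adjusted p = 0.00198), with 8.19 and 8.23 in K5-Cre skin, against 7.33 and 7.49 in no K5-Cre skin. Krt90 passed the filter only through its level in K5-Cre skin (adjusted p = 0.00206 without the filter). Krt23, a type I keratin, differed by 0.56 ± 0.23 and did not pass (adjusted p = 0.0815), with 9.84 and 9.19 in K5-Cre skin, against 9.002 and 8.91 in no K5-Cre skin. Krt12, the corneal keratin, had overlapping groups (difference 0.08 ± 0.09, adjusted p = 0.473). Krt42, Krt76, Krt88 and Krt222 were under the filter and differed by 0.12 to 0.46. Without the filter Krt42 and Krt88 were called higher (adjusted p = 0.0198 and 0.0184), as were 30.8% of all named genes. Krt76 and Krt222 did not pass without it (adjusted p = 0.117 and 0.495).

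The hair keratins split by their place in the follicle. The inner root sheath keratins were lower in K5-Cre skin or showed no detectable difference, the companion layer keratin was higher, and most shaft keratins were slightly higher at low signal. The 5 inner root sheath genes whose groups lay apart downward lie on 2 chromosomes, with sheath keratins that did not fall between some of them. The promoters of the 5 are shown here. Beside them are those of Krt26 and Krt72, neighbours whose groups overlapped, and of Krt5, the gene after which K5-Cre is named. Each line gives the 150 bases before the annotated start, 5′ to 3′, from RefSeq (GRCm38.p6, all on the minus strand), with matches to TATAAA and to CTTTGA, on either strand, in capitals.
Krt25: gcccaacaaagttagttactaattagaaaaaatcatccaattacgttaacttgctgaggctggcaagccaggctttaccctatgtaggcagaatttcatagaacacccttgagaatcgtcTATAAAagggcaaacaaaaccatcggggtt
Krt27: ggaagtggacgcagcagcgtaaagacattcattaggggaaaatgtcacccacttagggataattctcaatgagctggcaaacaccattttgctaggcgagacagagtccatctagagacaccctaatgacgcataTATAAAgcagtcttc
Krt28: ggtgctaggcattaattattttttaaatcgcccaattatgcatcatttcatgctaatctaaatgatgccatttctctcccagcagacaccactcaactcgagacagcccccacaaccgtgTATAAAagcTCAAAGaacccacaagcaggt
Krt71: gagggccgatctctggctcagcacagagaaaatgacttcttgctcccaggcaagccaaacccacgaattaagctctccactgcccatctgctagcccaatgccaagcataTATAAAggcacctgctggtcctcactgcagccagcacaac
Krt73: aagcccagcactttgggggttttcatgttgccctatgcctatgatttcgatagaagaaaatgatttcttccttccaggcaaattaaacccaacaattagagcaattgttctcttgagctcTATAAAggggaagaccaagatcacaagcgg
Krt26: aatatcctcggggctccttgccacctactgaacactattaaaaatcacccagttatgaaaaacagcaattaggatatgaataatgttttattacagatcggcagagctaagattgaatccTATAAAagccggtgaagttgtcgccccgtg
Krt72: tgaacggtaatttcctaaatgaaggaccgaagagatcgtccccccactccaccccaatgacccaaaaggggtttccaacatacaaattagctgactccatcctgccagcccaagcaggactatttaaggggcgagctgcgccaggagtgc
Krt5: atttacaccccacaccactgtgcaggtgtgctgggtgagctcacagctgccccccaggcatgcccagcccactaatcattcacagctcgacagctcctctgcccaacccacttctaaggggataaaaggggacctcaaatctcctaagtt
The windows are chr11:99322952-99323101 for Krt25, chr11:99351119-99351268 for Krt27, chr11:99374904-99375053 for Krt28, chr15:101743098-101743247 for Krt71, chr15:101802361-101802510 for Krt73, chr11:99337966-99338115 for Krt26, chr15:101786521-101786670 for Krt72 and chr15:101712906-101713055 for Krt5.

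Krt25, a type I keratin of the inner root sheath, had 6.91 and 6.81 in K5-Cre skin, against 9.02 and 9.03 in no K5-Cre skin, a difference of −2.17 ± 0.09 (adjusted p = 0.0001). Krt27, of the same layers, had 7.53 and 7.39 in K5-Cre skin, against 8.55 and 8.61 in no K5-Cre skin, a difference of −1.12 ± 0.10 (adjusted p = 0.000695). Krt28 had 5.94 and 5.52 in K5-Cre skin, against 7.94 and 7.89 in no K5-Cre skin. Krt28 lay under the filter, and without the filter it fell by 2.19 ± 0.15 (adjusted p = 0.000221). Both K5-Cre arrays were low and both no K5-Cre arrays high in all 3. Among the type II keratins of the sheath, Krt71 had 7.44 and 7.06 in K5-Cre skin, against 8.73 and 8.63 in no K5-Cre skin, a difference of −1.42 ± 0.15 (adjusted p = 0.00123). Krt73 had 7.003 and 6.86 in K5-Cre skin, against 8.83 and 8.81 in no K5-Cre skin, a difference of −1.89 ± 0.10 (adjusted p = 0.000161). These 4 genes kept their call in every alternative run, but each passed the filter only through its level in no K5-Cre skin, so their count is no support. Without the filter 5 of the 8 sheath genes fell and 3 did not pass, beside 27.9% of all named genes lower. The other 3 members, Krt26, Krt72 and Krt74, were under the filter, with differences of 0.00, 0.02 and 0.24 and no call without the filter (adjusted p = 0.989, 0.92 and 0.112). Krt74 is listed as a transcribed pseudogene in RefSeq. The K5-Cre values of the fallen genes lie under the filter level.

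Promoters were available for 36 of the 52 keratins. The 16 without one include Krt6a, Krt6b, Krt15, Krt16 and Krt17, so no sites of these genes were examined. TATAAA, the core of the TATA box, was found within the 250 bases before the start, on either strand, in all 7 inner root sheath keratins with a promoter. It was found in 10 of the 29 other keratins and in 12.4% of all 32851 promoters of the same length. Counted from the annotated start, its first base lies at −30 in Krt25, Krt28, Krt73 and Krt26, at −40 in Krt71 and at −15 in Krt27. Krt26 holds it at the same place as Krt25 without having differed between the groups, and in Krt72 the match lies on the opposite strand outside the printed window. CTTTGA, a core of LEF/TCF sites, was found in Krt28 alone among the 7, in 8 of the 29 other keratins and in 13.8% of all promoters. TGANTCA, the AP-1 site, and GCCNNNGGC, the AP-2 site, were found in 0 of the 7, in 1 and 5 of the 29 others, and in 6.75% and 13.7% of all promoters. These matches describe letters in a window and no binding.

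Krt75, the type II keratin of the companion layer that lies between the inner and outer root sheaths, rose while the inner root sheath keratins fell or did not pass. It had 10.80 and 11.001 in K5-Cre skin, against 8.56 and 8.48 in no K5-Cre skin, a rise of 2.38 ± 0.12 (adjusted p = 0.00016). Replicate 6 was the higher of its K5-Cre arrays. Of the 13 shaft keratins 12 were higher on both K5-Cre arrays and 1, Krt35, was lower. Among all named genes 47.6% lay apart upward and 37.0% downward. The 12 include Krt33a, which differed by only 0.04 (adjusted p = 0.721 without the filter). Krt35, of the lower shaft, had 7.36 and 7.51 in K5-Cre skin, against 7.98 and 8.02 in no K5-Cre skin (difference −0.56 ± 0.095, adjusted p = 0.00562). Krt35 passed the filter only through its level in no K5-Cre skin (adjusted p = 0.00675 without the filter). Krt33b and Krt87 rose by 0.38 ± 0.10 and 0.35 ± 0.10 (adjusted p = 0.0249 and 0.0272). None of the 3 calls held when a no K5-Cre array was left out (adjusted p from 0.051 to 0.277). The 10 shaft keratins under the filter had a median difference of 0.47, and 7 of them were called higher without the filter, led by Krt84 at 1.02 ± 0.12 and Krt86 at 0.95 ± 0.12. Low clusters as a whole were shifted the same way: over the 8683 named genes under the filter the median difference was 0.27, and 38.3% were called higher and 13.9% lower.

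Of 50 pairs of neighbouring keratin genes analysed, 34 had the same sign of difference and 16 opposite signs. In 11 the groups lay apart in opposite directions. Of the 52 keratins 37 lay apart upward and 9 downward, so most pairs would share a sign in any order. Whether neighbours are more alike than other keratins was not tested. In RefSeq the type II genes lie on chromosome 15 with the type I gene Krt18, and the other type I genes lie on chromosome 11. The places described here were chosen after their values were seen. Krt25, Krt27 and Krt28 follow one another with Krt26 between the first pair, and Krt71 and Krt73 stand at the ends of a run with Krt74 and Krt72 inside it. Krt10 is the next keratin after Krt28, and its difference was 0.01 beside −2.19. Krt15 (−2.84) lies between Krt13 (1.52) and Krt19 (1.47). Krt5 (0.30) lies between Krt6a (5.72) and Krt71 (−1.42), with 3 neighbours thus far apart.

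**Figure D3:**
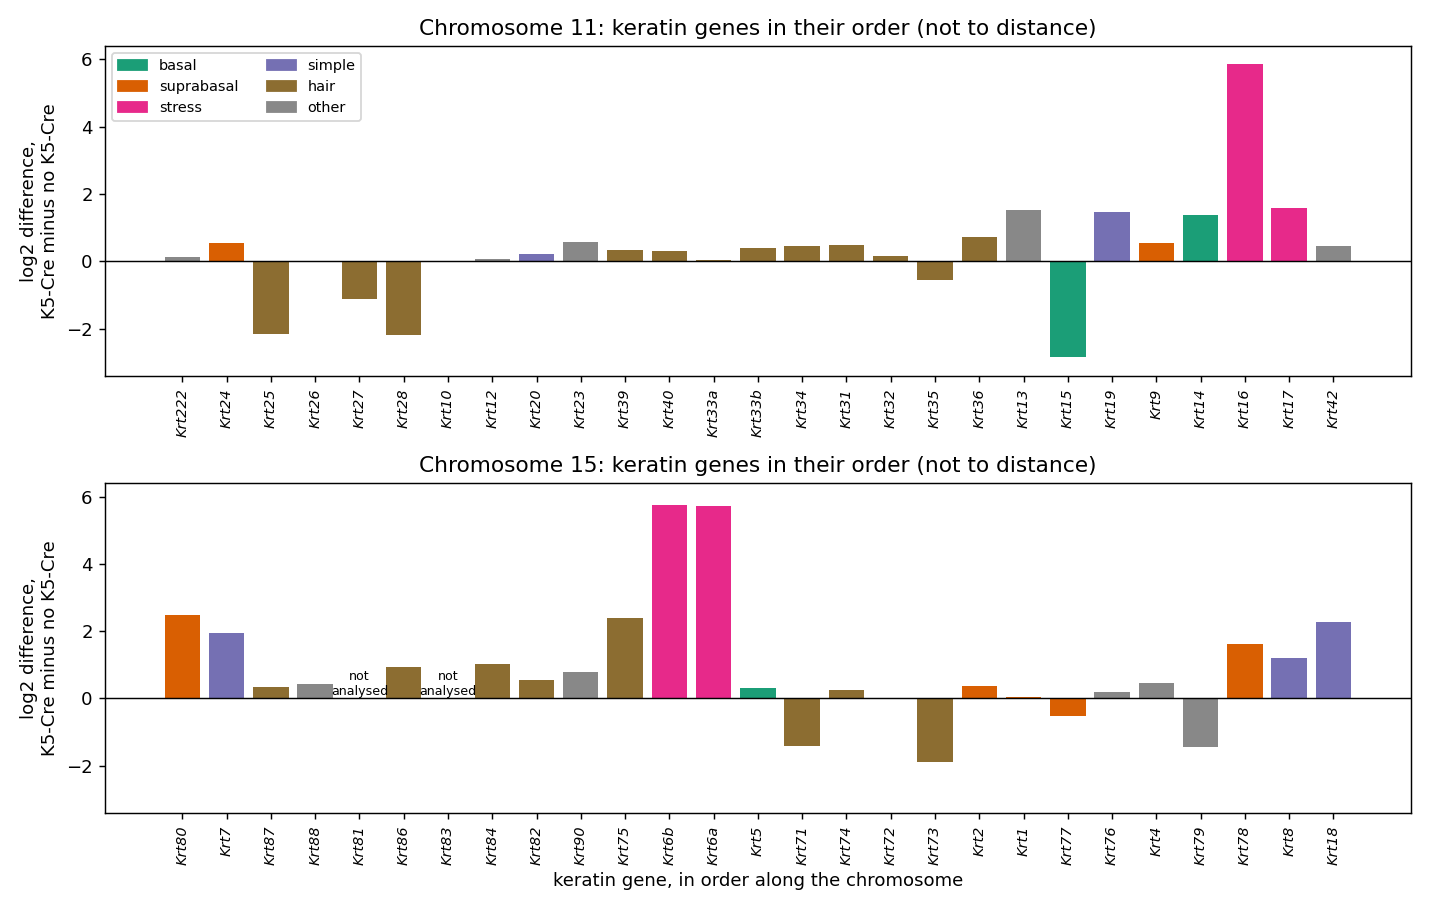
Log2 difference, K5-Cre minus no K5-Cre (vertical axis), of the keratin genes in their RefSeq order along chromosome 11 (upper panel) and chromosome 15 (lower panel), coloured by class and not drawn to distance. Krt15 at −2.84 lies between Krt13 at 1.52 and Krt19 at 1.47.

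Partners of a keratin pair did not always change alike. The change of type I relative to type II, taken within each array, was 1.06 for Krt14 with Krt5, so Krt14 rose further than its partner. It was 0.14 for Krt16 with Krt6a and −0.03 for Krt10 with Krt1, where the groups overlapped. For Krt17 with Krt6b it was −4.18, since Krt6b rose by 5.75 and Krt17 by 1.57. For Krt18 with Krt8 it was 1.09, and for Krt25 with Krt71 −0.74. The groups lay apart in 4 of the 6 pairs, all with the smallest two-sided p that an exact permutation test can give here, 0.333, and the 2 other pairs gave 0.667 and 1. Among all named genes, taken singly, 84.6% lay apart, and no such share is given here for pairs of genes at large. Partners can be exchanged, since Krt6 and Krt17 also pair with other keratins, so the pairs are a reading aid. The pair of Krt35 with Krt85 was not analysed here.

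**Figure D4:**
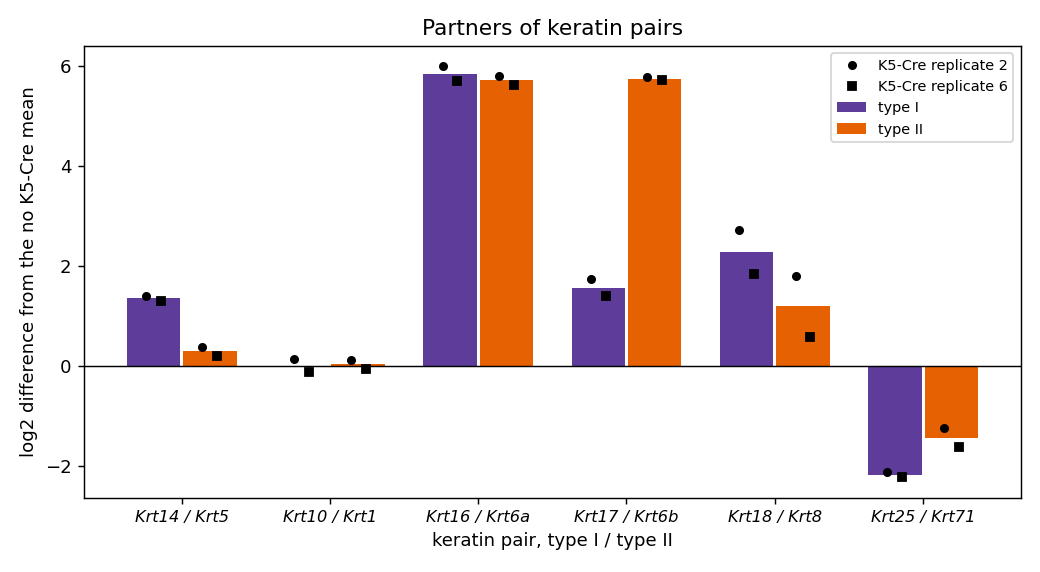
Bars give the log2 difference from the no K5-Cre mean for the type I and the type II member of 6 keratin pairs, and points the same for each K5-Cre array. Krt16 and Krt6a rose by 5.85 and 5.72, whereas Krt17 rose by 1.57 beside 5.75 for Krt6b.

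Of 13 genes with a cluster among desmosome plaque, hemidesmosome and filament-binding proteins, 11 were tested, with 7 higher, 1 lower and 3 not passing, and with a median of 0.62 over the 13. Among all tested genes 64.0% were called, 25.2% higher and 38.8% lower. Jup, encoding plakoglobin of the desmosome plaque, rose by 1.25 ± 0.12 (adjusted p = 0.000974). Eppk1, encoding epiplakin, and Pkp3, encoding a plakophilin, rose by 1.22 ± 0.17 and 1.19 ± 0.25. Dst, whose epithelial product ties keratin to the hemidesmosome, was the gene that fell, with 8.61 and 8.64 in K5-Cre skin, against 9.96 and 9.99 in no K5-Cre skin (difference −1.35 ± 0.10, adjusted p = 0.000412). Other products of Dst are made in muscle and nerve, and the muscle markers were lower in the same arrays, and their part in the value was not tested. Tchp, and Tchh, which encodes trichohyalin of the inner root sheath, differed by −0.14 ± 0.14 and 0.12 ± 0.13 and did not pass.

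Of 20 transcription factor genes known to act on keratin genes, 17 were tested, with 11 higher, 2 lower and 4 not passing, and with a median of 0.66 over the 20, beside 64.0% called, 25.2% higher and 38.8% lower among all tested genes. Fosl1 and Junb, subunits of AP-1, rose by 3.31 ± 0.18 and 2.62 ± 0.17 (adjusted p = 0.0002 and 0.000322), and Grhl3, a factor of barrier formation, rose by 2.20 ± 0.17. Fosl1 passed the filter only through its level in K5-Cre skin (adjusted p = 0.000105 without the filter). Lef1, which acts in hair follicle formation, had 7.33 and 7.38 in K5-Cre skin, against 9.78 and 9.78 in no K5-Cre skin, a difference of −2.43 ± 0.09 (adjusted p = 9.31e-05). Lef1 passed the filter only through its level in no K5-Cre skin (adjusted p = 5.07e-05 without the filter). Gata3, needed for the inner root sheath, fell by 1.01 ± 0.23 (adjusted p = 0.0148). Dlx3, a factor of the follicle and of differentiating epidermis, differed by 0.02 ± 0.17 and did not pass (adjusted p = 0.916). Without the filter 12 of the 20 were higher, 4 lower and 4 did not pass, beside 30.8% higher and 27.9% lower among all named genes. Of those under the filter, Ascl2 differed by 1.47, Hoxc13 by −0.68 and Msx2 by −0.48.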

How the data were processed

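Total RNA of skin, extracted with Trizol and labelled with biotin, was measured on 4 Affymetrix MoGene 1.0 ST arrays, per the labels and the file headers. The deposited series table holds log2 values for 35557 transcript clusters, and the summary and normalization the authors used are not given in the sources used here. The second deposited table holds a linear signal for 1396 clusters, with the authors' log2 values, ratio (fold) and signed fold score against no K5-Cre replicate 1. It was limited by the authors to clusters above the 20th percentile and at least 4-fold apart on at least 1 array (mm9), per the file headers. Over its clusters the group differences in the 2 tables had r = 0.998, with a slope of 0.917.

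Clusters were named from the platform annotation (21789 with 1 symbol, 1621 with several, 12147 with none), of which 21698 were matched through Entrez identifiers to a RefSeq table (GRCm38.p6). The cluster with the highest mean stood for a gene. Genes with a mean above 7.61 (11255 of 19938) were fitted with limma 3.58.1 in R 4.3.3 (lmFit, eBayes with trend), K5-Cre against no K5-Cre. The two-sided p-values of the tested genes were adjusted together by Benjamini-Hochberg, and 0.05 was the threshold. Errors are moderated SE with n = 2 arrays per group and 5.01 degrees of freedom (median SE 0.12). The fit was tested on simulated data. The number of arrays limits the precision. The rule named the main pairs, the 6 hair and 4 other keratins with the largest differences, and the 3 highest and 3 lowest tested genes of each further list. Members, classes and lists were chosen with earlier results of these data known. Alternatives were no filter, quantile scaling, a median shift, no trend, averaged clusters and leaving out each array. No per-sample column was unused (0).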

Additional observations from a re-analysis of the deposited data

How the results depend on the processing

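Of 23 keratin calls, 16 were the same in all 9 alternatives. The 7 others, Krt5, Krt7, Krt8, Krt33b, Krt35, Krt77 and Krt87, were lost without no K5-Cre replicate 1 and without replicate 3, the fits with 1 control array, and Krt5 also without the variance trend (adjusted p = 0.062). Krt23 passed without K5-Cre replicate 2 or 6 (0.24 and 0.89), in fits where the spread comes from the 2 no K5-Cre arrays alone and 8947 and 9147 genes passed in all, so these passes say nothing about the spread of K5-Cre skin. Krt1 and Krt10 turned negative without K5-Cre replicate 2 (−0.047 and −0.12) and Krt10 without no K5-Cre replicate 3 (−0.043). Over the arrays left out in turn, Krt1 reached 0.13 and Krt10 0.14, and Krt10 was 0.15 under quantile normalization. With no filter, 28 keratins were higher in place of 15, and over all genes 11712 passed in place of 7200, 6145 of them higher in place of 2836, since 19938 genes were tested. Leaving out 1 array gave 3831 to 9147 genes in all, 1463 to 3716 higher and 2368 to 5454 lower, and 10 to 16 keratins higher and 6 to 8 lower. The lowest counts came without no K5-Cre replicate 1 (3831) and replicate 3 (3946). Leaving out 1 array moved the class medians to 0.89 to 2.04 for simple, 0.29 to 0.55 for other and −1.40 to −1.14 for inner root sheath keratins. The sheath median was −1.18 under quantile normalization and −1.20 after the median shift, beside −1.27. Under quantile normalization the pair changes were 1.005 for Krt14 with Krt5 and 0.12 for Krt10 with Krt1. No other class median or pair change moved by more than the replicate spread. For pair changes with 1 array left out this was fixed in advance, since that shift cannot exceed the spread, so it is no sign of stability. The median over all tested genes was −0.14 as deposited, −0.03 under quantile normalization and −0.07 after shifting each array to 1 median. With 1 cluster per keratin, averaging clusters moved no keratin value. No paired analysis was possible because the groups share no replicate number.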
